A study of Mus musculus with 3 samples.

Results

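Collagen genes were compared between adenomas and late carcinomas of the MMTV-PyMT model, in which the MMTV promoter drives the polyoma middle T oncogene, mainly in mammary epithelium. Per the series' design text, the donors were mice in puberty that carried MMTV-PyMT together with B-actin-GFP, and each outgrowth arose from a single hyperplasia placed in a syngeneic host. Neither it nor the labels name a separation of graft cells from host cells, so RNA of host stroma can be part of both stages. Adenomas are outgrowths of 5 weeks and late carcinomas outgrowths of 18 weeks, so the stages also differ in time within the host. Each of 3 arrays with 2 channels set total RNA of an adenoma, in Cy5, against that of a late carcinoma, in Cy3. The labels give neither the age of the hosts nor whether each array stands for its own animals, and p-values reflect array-to-array spread that may be purely technical.

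The collagens are all genes whose symbol in the platform annotation begins with Col, a type number and an alpha-chain number. They numbered 36 of the 15055 named genes tested and were read by 61 probes. By class they were 10 fibrillar chains, 6 type IV chains of the basement membrane and 20 chains of other types. Another 8 collagen genes of the mouse RefSeq table had no probe named for them and were not analysed here, and the chains of types XII, XX, XXII, XXIV and XXVIII are among them.

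Collagen molecules are triple helices of alpha chains, made of one kind of chain or of several, which are hydroxylated and folded in the endoplasmic reticulum before they are secreted. Fibrillar collagens are trimmed outside the cell and assemble into the cross-linked fibres of the stroma, where fibroblasts are their main source. Type IV collagen instead forms the sheet-like network of the basement membrane under epithelia and around vessels, muscle fibres and fat cells. In the mammary gland both surround the ducts, and the matrix around them is rebuilt as tumours grow.

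The deposited values were read as log2 of adenoma over late carcinoma, so that a value below 0 means likely higher in the late carcinoma and a value above 0 likely higher in the adenoma. The files state neither the numerator nor the log base, and with the opposite numerator all directions given here would be inverted. The ratios hold no level of a chain, so they do not say which collagens were abundant in these tumours or whether a chain was expressed at all, and for the same reason the tissue labels could not be checked against the presence of marker genes. In RNA of whole outgrowths, fewer cells of a type and less RNA per cell cannot be told apart. All arrays had the same dye orientation, so a dye effect of a probe and a stage difference cannot be told apart either. Olfactory and vomeronasal receptor genes, taken as a background of genes that serve smell in the nose, had a median mean ratio of 0.34 over 977 genes and ran from -0.88 to 1.33. All 36 collagen means lay inside that range, as did 98.9% of the means of all genes and probes. Of the receptor genes themselves, 46.1% passed, 43.4% above 0 and 2.66% below 0.

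Of the 36 collagens, 6 passed below 0 and 3 above 0 at an adjusted p of 0.05 in limma's moderated test, fitted and adjusted over all 31058 genes and probes. Those that passed below 0 were the fibrillar chains Col1a1, Col2a1 and Col11a1, the basement membrane chains Col4a1 and Col4a2 and the transmembrane collagen Col23a1. The FACIT chain Col9a2, the transmembrane collagen Col13a1 and Col26a1 passed above 0. Called collagens made up 25.0% of the family, beside 25.1% of all genes and probes, so the share of calls in the family was near that of the table as a whole. By direction, 16.7% of collagens passed below 0, beside 9.21% of all genes and probes, and 8.33% passed above 0, beside 15.9%. Without array 3 no collagen passed in limma (lowest adjusted p = 0.114). The unadjusted p was then under 0.05 for 9 of the 36 collagens, beside 7758 of 31058 genes and probes. With every array it was under 0.05 for 12 collagens, beside 12545 genes and probes. Without array 3, 1 gene of the entire table passed, the fat cell gene Fabp4.

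Fibrillar and type IV chains lay mostly below 0, and the other collagens on both sides of it. The median of the mean log2 ratios was -0.29 for fibrillar chains, -0.19 for type IV chains and 0.070 for the other collagens, beside -0.019 over all genes and probes. Centred on the receptor genes, which lowers each array by a constant, the medians were -0.64, -0.54 and -0.28, beside -0.37 over all genes and probes, and 22 of the 36 collagens passed below 0 and 3 above 0, beside 16811 and 2289 of 31058. Without that centring, 3 of the 10 fibrillar chains passed below 0 and 0 above 0, or 30.0% in all. Type IV chains gave 2 of 6 below 0 and 0 above (33.3%), and the other collagens 1 of 20 below 0 and 3 above (20.0%). Over all genes and probes 25.1% passed, 9.21% below 0 and 15.9% above 0. The same sign on all 3 arrays was seen for 20 of the 36 collagens, or 55.6%, beside 60.6% of all genes and probes. It was below 0 for 5 fibrillar, 4 type IV and 4 other chains, and above 0 for 0, 1 and 6. No test between the classes was made.

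**Figure D1:**
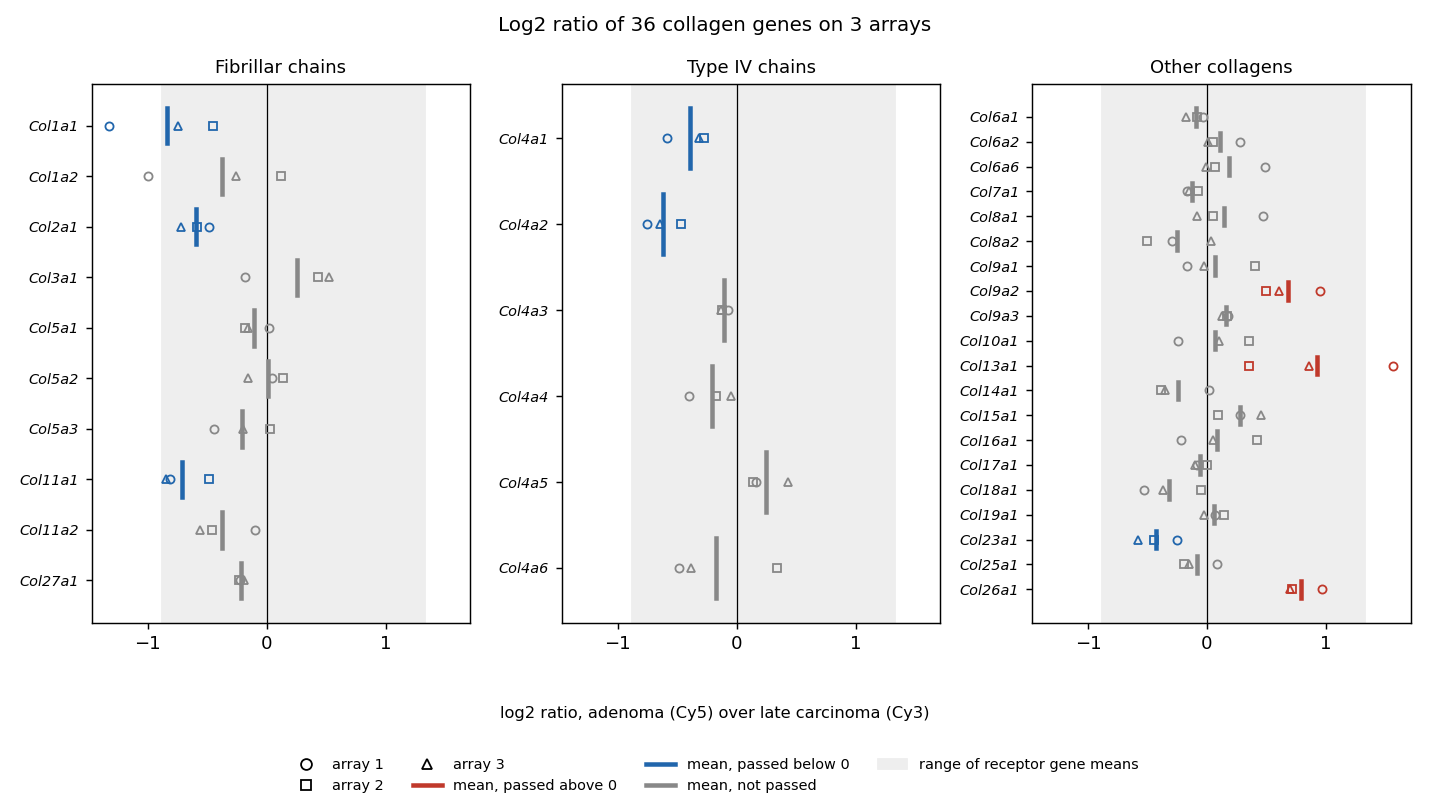
Log2 ratio of adenoma over late carcinoma (x axis) for each of the 36 collagen genes, by class; open symbols are the 3 arrays, the bar is their mean, and its colour gives the limma call at an adjusted p of 0.05. The grey band is the range of the receptor gene means, -0.88 to 1.33: every bar lies within it, called fibrillar and type IV chains lie below 0 and the called chains above 0 are all in the right panel.

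Type I collagen, the bulk fibre of the stroma, is built of Col1a1 and Col1a2 chains. Col1a1 had log2 ratios of -1.33, -0.45 and -0.74 on arrays 1, 2 and 3, below 0 on all of them and lowest on array 1. Its mean was -0.84 ± 0.45 (SD, n = 3), a 1.79-fold ratio in favour of the late carcinoma (adjusted p = 0.0188), and the lowest mean of any collagen. That rank rests on array 1: without it Col1a1 was at -0.59, above Col11a1 (-0.67) and Col2a1 (-0.65). Col1a2 had -0.99, 0.12 and -0.26 and did not pass (-0.38 ± 0.57, adjusted p = 0.215), its array 2 value lying on the other side of 0. It passed below 0 without array 2 (-0.63, adjusted p = 0.0395). Within each array Col1a1 lay below its partner, by -0.33, -0.57 and -0.48. Each chain was read by 1 probe.

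Type III collagen, a homotrimer of Col3a1 that copolymerises with type I in soft tissue, had ratios of -0.19, 0.43 and 0.52. Array 1 lay below 0 and the other two above it, and the mean of 0.26 ± 0.39 did not pass (adjusted p = 0.267). It passed above 0 without array 1 (0.48, adjusted p = 0.0291) and with array weights (0.40, adjusted p = 0.0423). Centred on the receptor genes it turned to -0.091 without passing. The difference of Col1a1 minus Col3a1 was -1.14, -0.88 and -1.26 on the 3 arrays, so the 2 chains kept their order on each array. With 3 arrays an exact two-sided sign-flip test of such a difference cannot go below a p of 0.25, and none was run. Both probes of Col3a1 had means above 0, 0.092 and 0.42.

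The chains of type V, which sit inside type I fibrils and limit their width, had mean ratios of -0.11 for Col5a1, 0.0082 for Col5a2 and -0.21 for Col5a3. Col5a1 had 0.022, -0.19 and -0.15 on the 3 arrays, with array 1 alone above 0. Col5a2 had 0.049, 0.13 and -0.16, with array 3 alone below 0. Col5a3 had -0.45, 0.028 and -0.20, with array 2 alone above 0. None of them passed, with adjusted p of 0.49, 0.964 and 0.261. Col3a1 and Col5a2 are neighbours on chromosome 1 in RefSeq with no protein-coding gene between them, and their means were 0.26 and 0.0082.

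Type XI chains nucleate the thin fibrils of cartilage, and Col11a1 is also known from the activated stroma of human carcinomas. Col11a1 had -0.81, -0.48 and -0.85 on the 3 arrays, all below 0, with a mean of -0.71 ± 0.20 (adjusted p = 0.0124). Its partner Col11a2 was also below 0 on all arrays, at -0.10, -0.46 and -0.56, and did not pass (adjusted p = 0.0718). It passed with array weights (-0.47, adjusted p = 0.013) and without array 1 (-0.51, adjusted p = 0.0246).

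Col2a1, the fibrillar chain of cartilage, had -0.48, -0.59 and -0.72, a narrow set below 0, with a mean of -0.60 ± 0.12 (adjusted p = 0.0138), though its first probe alone did not pass (0.0701). Col27a1, a long fibrillar chain of cartilage, had -0.22, -0.24 and -0.19, the tightest set among the fibrillar chains, and did not pass (adjusted p = 0.155). These values average 2 probes that differed, at -0.026 ± 0.13 and -0.405 ± 0.11. The latter passed below 0 in limma as its own unit (adjusted p = 0.0387). Genes that mark chondrocytes, the cells in which Col2a1, Col9a2 and Col11a1 are best known, gave 0 of 4 past the threshold, beside 25.2% of named genes (Comp -0.13 ± 0.19, Hapln1 0.19 ± 0.081). The list medians were 0.024, -0.063 and -0.22 on the arrays. Centred on the receptor genes, Comp passed below 0 (-0.48, adjusted p = 0.0147), as did 16811 of 31058 genes and probes. The part of chondrocytes in the ratios of the cartilage chains was not tested.

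Type IV chains form their network from 3 kinds of trimer, and their genes lie in 3 pairs, each pair adjacent in RefSeq with no protein-coding gene between. The ubiquitous pair passed below 0. Col4a1 had -0.58, -0.28 and -0.32 on the 3 arrays, with a mean of -0.40 ± 0.16 (adjusted p = 0.0452), and Col4a2 had -0.76, -0.47 and -0.64, with a mean of -0.62 ± 0.15 (adjusted p = 0.0135). Col4a1 lay nearer to 0 than Col4a2 on each array, by 0.17, 0.19 and 0.32. The call of Col4a1 did not hold with median centring (adjusted p = 0.0557), without array 1 (0.109) or without array 2 (0.0625).

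The remaining type IV pairs, whose chains belong to more specialised basement membranes such as that of the kidney glomerulus, did not pass. Col4a3 had -0.070, -0.13 and -0.13, a narrow set below 0. Col4a4 had -0.41, -0.18 and -0.046, also below 0 on all arrays and lowest on array 1. The pair on the X chromosome had means on opposite sides of 0. Col4a5 was above 0 on every array, at 0.16, 0.14 and 0.43 (adjusted p = 0.153), while Col4a6 had -0.49, 0.34 and -0.38 (adjusted p = 0.485), with array 2 alone above 0. Col4a5 passed above 0 with array weights (0.33, adjusted p = 0.0396) and with its first probe alone (0.87, adjusted p = 0.0105). Its mean turned to -0.10 when centred on the receptor genes, and its probes disagreed, as given with the probe values.

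The promoter windows of one pair whose chains passed together and of the pair on the X chromosome are shown so that the shared stretch can be seen. They are RefSeq sequences of GRCm38.p6, from 250 bases before to 50 bases after the annotated start, 5′ to 3′ on the strand of each gene. Capitals mark matches to CCAAT or to the GC box GGGCGG on either strand (as ATTGG or CCGCCC where they lie on the other strand), and no match to one overlapped a match to the other.
Col4a1, chr8:11312777-11313076, minus strand: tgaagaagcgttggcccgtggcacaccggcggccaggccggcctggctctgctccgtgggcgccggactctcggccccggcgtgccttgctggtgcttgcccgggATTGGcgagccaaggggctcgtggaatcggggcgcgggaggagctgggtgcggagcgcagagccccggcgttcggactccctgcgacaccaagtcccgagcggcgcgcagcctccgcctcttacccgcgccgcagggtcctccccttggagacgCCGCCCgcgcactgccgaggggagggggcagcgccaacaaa
Col4a2, chr8:11312555-11312854, plus strand: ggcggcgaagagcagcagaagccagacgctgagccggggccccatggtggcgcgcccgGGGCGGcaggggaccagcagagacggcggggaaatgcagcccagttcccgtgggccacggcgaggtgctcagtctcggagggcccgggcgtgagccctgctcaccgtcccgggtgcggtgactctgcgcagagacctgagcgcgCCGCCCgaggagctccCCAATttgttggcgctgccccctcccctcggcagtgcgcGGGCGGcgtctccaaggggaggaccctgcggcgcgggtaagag
Col4a5, chrX:141475169-141475468, plus strand: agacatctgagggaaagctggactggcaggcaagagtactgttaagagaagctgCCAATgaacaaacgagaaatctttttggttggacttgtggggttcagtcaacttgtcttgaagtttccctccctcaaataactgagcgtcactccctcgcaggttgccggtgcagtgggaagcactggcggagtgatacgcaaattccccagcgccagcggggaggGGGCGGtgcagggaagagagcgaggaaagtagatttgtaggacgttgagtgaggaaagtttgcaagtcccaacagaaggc
Col4a6, chrX:141474027-141474326, minus strand: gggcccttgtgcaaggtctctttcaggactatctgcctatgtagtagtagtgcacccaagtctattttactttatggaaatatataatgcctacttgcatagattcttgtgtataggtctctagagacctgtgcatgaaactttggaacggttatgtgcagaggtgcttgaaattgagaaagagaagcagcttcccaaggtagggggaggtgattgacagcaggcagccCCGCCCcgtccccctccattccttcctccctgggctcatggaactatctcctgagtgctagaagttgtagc

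The annotated starts of Col4a1 (11312826, minus strand) and Col4a2 (11312805, plus strand) lie 21 bases apart. Each start lies within the annotated transcript of the other gene, so no spacer separates them. Their windows share 78 bases, which take in all bases after either start and hold 1 match to GGGCGG and 0 to CCAAT. The annotated starts of Col4a5 and Col4a6 lie 1343 bases apart, and their windows share none. The Col4a1 and Col4a2 windows are 74.0% and 73.7% G or C, against 52.7% and 48.3% for Col4a5 and Col4a6 and a median of 52.7% over the windows of all genes. Of the 29 measured collagens with a window, taking the first window of each gene, 20 held GGGCGG on either strand, or 69.0%, beside 35.9% of 27025 genes. CCAAT was held by 11 of 29, or 37.9%, beside 37.9%, and TATAAA by 5 of 29, or 17.2%, beside 14.2%. A match describes the letters of the window and not a bound factor.

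**Figure D2:**
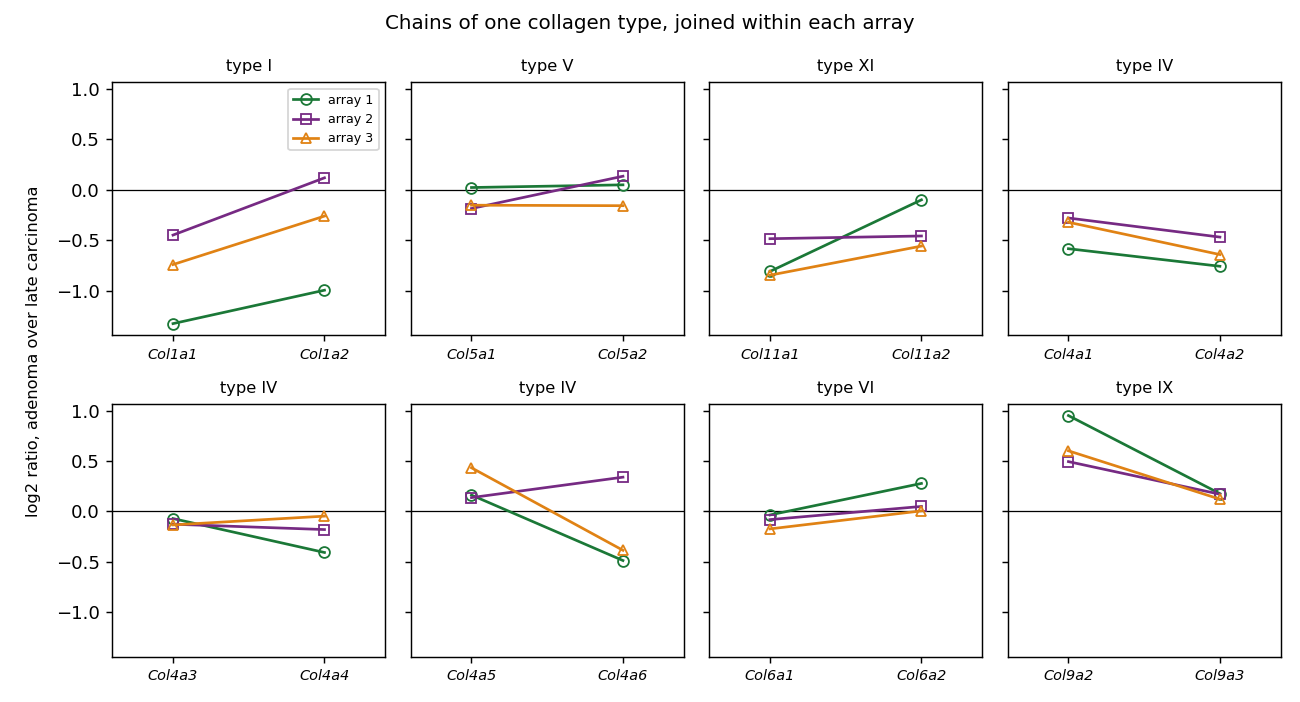
Log2 ratio of adenoma over late carcinoma (y axis) for pairs of chains of one collagen type (x axis), with the values of each array joined by a line. The Col1a1 values lie below those of Col1a2 and the Col4a2 values below those of Col4a1 on all 3 arrays, while Col4a5 lies above Col4a6 on arrays 1 and 3 and below it on array 2.

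Among the other collagens the chains above 0 were of unlike kinds. Type IX collagen decorates the surface of type II fibrils in cartilage. Its chain Col9a2 had 0.95, 0.49 and 0.60 on the 3 arrays, all above 0, with a mean of 0.68 ± 0.24 (adjusted p = 0.0147). The partner chains did not pass. Col9a1 had -0.17, 0.41 and -0.022, and Col9a3 had 0.18, 0.17 and 0.12. Col2a1, whose fibrils type IX covers, lay below Col9a2 on each array, by -1.43, -1.08 and -1.32.

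Col13a1 is a transmembrane collagen of cell-matrix contacts. It had 1.56, 0.35 and 0.85, the highest collagen mean (0.92 ± 0.61, adjusted p = 0.0268) and a wide spread, array 1 lying far above array 2. Without array 1 its mean was 0.60, under that of Col26a1 (0.71). Col26a1, first described in testis and ovary, had 0.96, 0.71 and 0.70 with a mean of 0.79 ± 0.15 (adjusted p = 0.0117). Centred on the receptor genes, all 3 chains stayed above 0 and passed, at 0.33 for Col9a2, 0.58 for Col13a1 and 0.44 for Col26a1.

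Col23a1, another transmembrane collagen, went the other way with -0.25, -0.45 and -0.58 and a mean of -0.43 ± 0.16 (adjusted p = 0.036). That call did not hold without array 2 (adjusted p = 0.0881) or with its first probe alone (0.11). The other transmembrane chains measured were Col17a1, a component of hemidesmosomes in basal epithelium, and Col25a1, with means of -0.060 and -0.087, neither past the threshold.

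The 16 other collagens that did not pass had means from -0.32 to 0.27. The measured type VI chains of beaded filaments, which are abundant around fibroblasts and fat cells, had means of -0.096 for Col6a1, 0.11 for Col6a2 and 0.18 for Col6a6. The type VI chain Col6a3 was not among the collagens measured. Col7a1, which anchors basement membranes to the dermis, had -0.17, -0.072 and -0.15. Of the multiplexins, which are proteoglycans at the outer face of basement membranes, Col15a1 was above 0 on every array at 0.28, 0.093 and 0.45 and Col18a1, the source of endostatin, below 0 at -0.53, -0.050 and -0.37. Neither passed (adjusted p = 0.123 and 0.111), though both did with array weights (adjusted p = 0.0351 and 0.0473). The fibril-associated chains Col14a1, Col16a1 and Col19a1 had means of -0.24, 0.084 and 0.061. Col14a1 passed below 0 with array weights (-0.31, adjusted p = 0.0465). The network chains Col8a1, Col8a2 and Col10a1 had 0.15, -0.25 and 0.069.

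Probes of one gene often disagreed. Of 17 collagens with more than 1 probe, 9 had probe means on both sides of 0, and in 9 the SD between probe means was larger than the SD between arrays within a probe. Col7a1 showed this most plainly: its probes had means of -0.56 ± 0.061 and 0.30 ± 0.041 (SD over 3 arrays), each steady over the arrays and on opposite sides of 0. Col6a1 had 2 probes above 0 (0.20 ± 0.059 and 0.28 ± 0.14) and 1 below (-0.77 ± 0.12), and the averaged value near 0 was that of no probe. With the median of its probes or the first probe alone the mean of Col6a1 turned to 0.17 or 0.28. Probe disagreement was not counted for genes outside the collagens, so whether the collagens differ in it was not tested.

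The probes of Col4a5 had 0.87 ± 0.30, which passed above 0 as a probe of its own, and -0.38 ± 0.33, which did not pass. Col19a1 had 0.46 ± 0.15 and -0.34 ± 0.14, the former passing. Col25a1 was read by 5 probes against 2 RefSeq transcripts, with means from -0.54 to 0.70, and 2 of them passed below 0. The widest gap between the probes of one collagen was 1.25, for Col4a5, and the median gap was 0.46. Tested row by row, 14 of the 61 collagen probes passed below 0 and 5 above 0, or 19 in all and 31.1%, beside 26.0% of all 38975 rows tested. They include probes of 7 genes whose average did not pass.

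Of the 9 called genes, 6 rested on 1 probe: Col1a1, Col4a1, Col4a2, Col9a2, Col13a1 and Col26a1. The other 3 had all their probe means on the called side. Those of Col2a1 were -0.35, -0.47 and -0.97, and those of Col23a1 were -0.30 and -0.56. Col11a1 had -0.73, -0.084 and -1.32. What the probes bind besides the named chain was not tested.

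**Figure D3:**
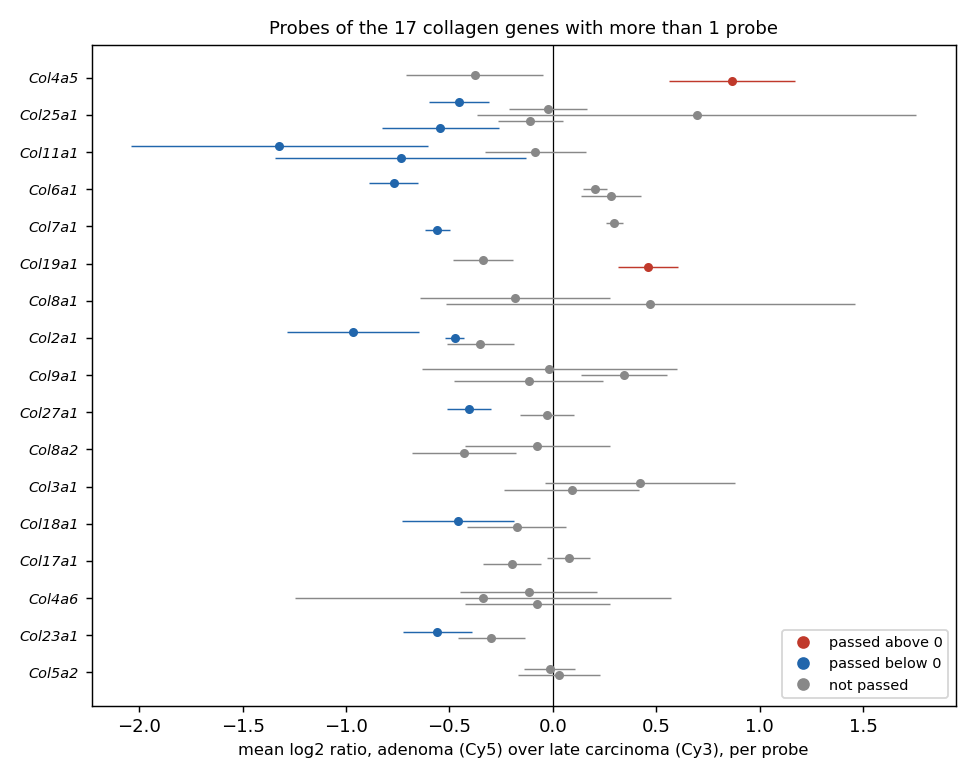
Mean log2 ratio of adenoma over late carcinoma (x axis) for each probe of the 17 collagens with more than 1 probe, ordered by the gap between their probes; lines are the SD over 3 arrays and colours the limma call of the probe as its own unit. Probes of Col4a5, Col6a1, Col7a1 and Col19a1 lie on opposite sides of 0 with gaps wider than their SD.

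Genes that fold and modify procollagen in the endoplasmic reticulum gave 4 of 18 past the threshold below 0 and 1 above 0, or 27.8% in all, beside 25.2% of named genes, with a median mean ratio of -0.28, beside -0.027 over named genes. P4hb, the beta subunit of prolyl 4-hydroxylase and protein disulfide isomerase, had -1.32, -0.63 and -0.59 (adjusted p = 0.0162), and its lowest value, like that of Col1a1, was on array 1. Crtap, part of the prolyl 3-hydroxylation complex, had a mean of -0.55 ± 0.24, and Tmem38b, a cation channel of the endoplasmic reticulum that collagen synthesis in bone needs, -0.68 ± 0.30. The collagen galactosyltransferase gene Colgalt2 was above 0 (0.45 ± 0.16). Crtap and Colgalt2 did not pass without array 2 (adjusted p = 0.0582 and 0.111), nor did Colgalt2 with receptor centring (0.469).

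Of the export and maturation genes, 2 of 7 passed for export (28.6%) and 2 of 13 for propeptide cleavage and cross-linking (15.4%), beside 25.2% of named genes. Of the export genes, the coat protein gene Sec23a passed below 0 (-0.66 ± 0.28) and the retrieval receptor gene Kdelr2 above 0 (0.48 ± 0.16), which turned with its first probe (-0.35) and did not pass with receptor centring. Both genes that passed for propeptide cleavage and cross-linking encode related proteases that cut the C-propeptide of fibrillar chains. Bmp1 had -0.84, -0.35 and -0.55 on the 3 arrays. Tll1 had 1.36, 0.69 and 0.93. They lay on opposite sides of 0 on all 3 arrays, and Bmp1 did not pass with its first probe alone (adjusted p = 0.0985). The lysyl oxidase family, which cross-links fibrils, gave 0 of 5 past the threshold.

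Fibril-binding matrix genes held 4 of 16 below 0 and 2 above 0, or 37.5% in all, beside 25.2% of named genes, with a median of -0.17. Matn2 (-0.59 ± 0.28), the keratocan gene Kera (-0.49 ± 0.15) and the thrombospondin gene Thbs1 (-0.47 ± 0.16) passed below 0, and Prelp, a small leucine-rich proteoglycan, above 0 (0.62 ± 0.12), though not with receptor centring (adjusted p = 0.0775). Of 8 partners of type IV in the basement membrane, 1 passed (12.5%): the laminin chain gene Lamb1, below 0 at -0.60, -0.39 and -0.67.

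Of 8 measured collagen receptor genes, 2 passed below 0 and 2 above 0, or 25.0% in each direction. Among named genes 9.19% passed below 0 and 16.0% above 0. The integrin chains Itga2 and Itgb1, which pair as a collagen receptor of epithelium and platelets, passed below 0. Itga2 had -0.82, -0.63 and -0.93 on the 3 arrays. Itgb1 had -0.72, -0.66 and -0.69, and both kept a narrow range. Lair1, an inhibitory collagen receptor of leukocytes, and Oscar, a collagen receptor of myeloid cells and osteoclasts, passed above 0. Lair1 had 1.65, 0.72 and 1.14. Oscar had 1.78, 0.55 and 0.60, and both were highest on array 1. The other 4, the discoidin domain receptor genes Ddr1 and Ddr2 among them, did not pass.

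Genes of collagen degradation gave 0 of 12 past the threshold, beside 25.2% of named genes. The largest means were those of the inhibitor gene Timp1 (-0.41 ± 0.26, adjusted p = 0.0603) and the collagenase gene Mmp1a (0.33 ± 0.072, adjusted p = 0.0578). Mmp1a passed with median centring, array weights or named genes alone (adjusted p = 0.047, 0.0287 and 0.0452), and Timp1 passed below 0 with receptor centring. Of 16 regulators of collagen transcription (25.0% called, beside 25.2% of named genes), 3 passed above 0 and 1 below 0. They were the ligand gene Tgfb3 (0.72 ± 0.015), the CCAAT-binding subunit gene Nfyc (0.45 ± 0.25) and Tcf21 (0.48 ± 0.14) above 0, of which Nfyc and Tcf21 did not pass with receptor centring, and Meox1 (-0.46 ± 0.16) below 0. Without array 1, Nfyc and Meox1 did not pass (adjusted p = 0.107 and 0.0532), nor did Tcf21 with its first probe alone (0.0838). Over the 8 lists together, 14 of 98 genes passed below 0 and 10 above 0, or 24.5%, beside 25.2% of named genes. By direction that is 14.3% below 0, beside 9.19% of named genes, and 10.2% above 0, beside 16.0%.

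**Figure D4:**
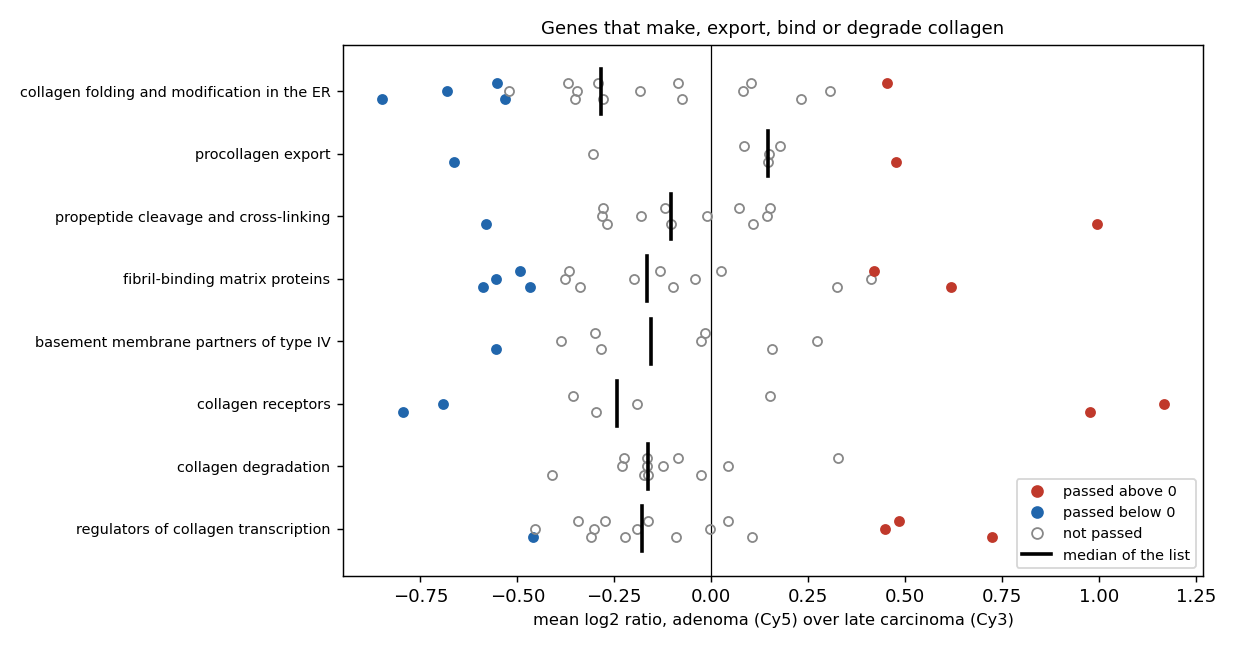
Mean log2 ratio of adenoma over late carcinoma (x axis) for the measured genes of 8 lists around collagen (y axis), filled where the limma test passed at an adjusted p of 0.05; black bars are list medians. In the receptor list Itga2 and Itgb1 lie below 0 and Lair1 and Oscar above 0, and in the degradation list no gene passed.

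Markers of cells that make collagen were read beside the collagen ratios. Called genes made up 12.5% of the fibroblast, 16.7% of the pericyte and smooth muscle and 20.0% of the endothelial list, beside 25.2% of named genes. Of 8 fibroblast genes, Twist2 passed above 0 (0.51 ± 0.021, not with receptor centring) and 0 passed below 0, and the list medians were -0.047, -0.068 and -0.15 on the arrays. Pericyte and smooth muscle genes had 1 of 6 below 0, the desmin gene Des (-0.57 ± 0.32), and list medians of -0.22, -0.24 and -0.27. Of 5 endothelial genes, 1 passed above 0 (Kdr, 0.69 ± 0.23), with list medians of 0.26, 0.29 and 0.22. Pecam1, the 1 endothelial gene with a mean below 0, did not pass and had -0.52, -0.08 and -0.28 on the arrays.

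Fat cells, which surround themselves with type IV and type VI collagen, were marked by 6 genes, of which 3 passed above 0: Fabp4 (3.49 ± 0.60), Lep (0.62 ± 0.11) and Adipoq (0.53 ± 0.30). The other 3 did not pass, and Cidec (-0.28 ± 0.19) and Lipe (-0.28 ± 0.13) were below 0 on every array, while Plin1 was at 0.028 ± 0.23. The adipocyte list medians were 0.36, 0.11 and 0.30. Basal and myoepithelial genes gave 0 of 4 past the threshold, beside the same 25.2% (Krt5 -0.28 ± 0.35, Mylk 0.31 ± 0.33). Krt5 passed below 0 without array 2 (-0.47, adjusted p = 0.0476) and with receptor centring (-0.62, adjusted p = 0.0148). Of 6 luminal genes, Cdh1 (0.63 ± 0.29) and Elf5 (0.67 ± 0.22) passed above 0 and Krt19 (-1.16 ± 0.35) below 0, and of 4 skeletal muscle genes Acta1 passed above 0 (0.56 ± 0.27). With receptor centring Lep, Adipoq, Cdh1 and Acta1 did not pass, and without array 1 Adipoq and Des did not (0.0703 and 0.0613). Without array 3, Fabp4 was the one gene named from any of these lists that passed (adjusted p = 0.0237). The part of any of these cell types in the collagen ratios was not tested.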

How the data were processed

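Per the labels, each of 3 arrays compared an adenoma (Cy5) with a late carcinoma (Cy3). The deposited table holds log2 ratios, a reading from the values and the usual convention. For the scanner, the background correction and any normalization, the method was not given in the sources used here. All 22973 annotated rows of 38976 had 1 gene symbol, 16003 had none, and 22973 matched the GRCm38.p6 gene table by gene ID, with 0 symbols changed. Probes sharing a gene were averaged on each array; unnamed rows were kept as single probes. One gene with a missing value was left out.

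For each unit limma 3.58.1 (R 4.3.3) tested whether the mean differed from 0, two-sided, by an intercept fit and eBayes (4.60 prior degrees of freedom), with Benjamini-Hochberg adjustment over 31058 units. The number of arrays limits the precision. The fit was tested on simulated data. The collagen classes, gene lists and alternatives were chosen with earlier results of these data known. Values on every array are given for fibrillar and type IV chains and for other collagens past the threshold; from a list the text names at most 4 called genes, by smallest p, or, without any call, the 2 largest means in size. Array values of Col7a1, Col9a1, Col9a3, Col15a1, Col18a1 and Pecam1, the means of Cidec, Lipe and Plin1, and the counts of lysyl oxidases were chosen after their values were seen. Receptor centring subtracted the median of the olfactory and vomeronasal receptor genes (0.41, 0.28 and 0.36) from each array. Figures used matplotlib 3.10.9.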

Additional observations from a re-analysis of the deposited data

How the results depend on the processing

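No paired analysis was possible because each ratio already sets an adenoma against a late carcinoma on its array, so the pairing is part of every value and no block could be added. The calls of Col1a1, Col4a2, Col9a2, Col11a1, Col13a1 and Col26a1 passed under every alternative run by gene except leaving out array 3. All but Col11a1 rested on 1 probe, so the first probe and the median of the probes left their values unchanged. Tested in limma as its own unit, a probe of Col11a1 did not pass (-0.084, adjusted p = 0.669). Causes were not tested. Of 7809 calls over all genes and probes (4948 above 0, 2861 below), leaving out an array gave 1 to 7324, array weights 12036, named genes alone 4274 (fewer units tested) and receptor centring 19100 (2289 above, 16811 below).

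The 9 collagen calls (3 above, 6 below) became 0 to 10 when an array was left out (0 to 4 above, 0 to 6 below; 0 to 5 fibrillar, 0 to 1 type IV, 0 to 4 other). Receptor centring gave 25 (22 below; 9 fibrillar, 5 type IV, 11 other), array weights 15 (6 above; 5 fibrillar, 7 other), the first probe 5 above, and single probes 19 (5 above, 14 below). Type IV calls numbered 2, with 3 under array weights or the first probe and 1 under median centring. The 24 pathway calls became 69 with receptor centring, 43 with array weights or an adjusted p of 0.1, and 0 to 24 without an array.

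With receptor centring the sign turned for Col3a1 (-0.091), Col4a5 (-0.10), Col5a2 (-0.34), Col6a2 (-0.24), Col6a6 (-0.16), Col8a1 (-0.20), Col9a1 (-0.28), Col9a3 (-0.19), Col10a1 (-0.28), Col15a1 (-0.074), Col16a1 (-0.26), Col19a1 (-0.29), Hapln1 (-0.16), Mmp1a (-0.020) and Mylk (-0.036). Leaving out 1 array moved Col5a2 between -0.055 and 0.091, Col8a1 between -0.016 and 0.26, Col9a1 between -0.097 and 0.19, Col10a1 between -0.071 and 0.23 and Col16a1 between -0.084 and 0.24. The sign also turned for Col5a2 with array weights (-0.061). The first probe alone turned Col6a1 (0.28), Col9a1 (-0.12), Kdelr2 (-0.35) and Mylk (-0.0090), and the median of the probes Col6a1 (0.17). None of the 9 called collagens changed sign, but for most settings this was fixed beforehand. Each had 1 sign on all 3 arrays and its probe means on that side. Leaving out or weighting arrays or taking the first probe could therefore not turn them. Receptor centring, which lowers each array, could turn only those above 0.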
